A study of Mus musculus with 24 samples.

Results

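Early subjective day was compared with late subjective night in the suprachiasmatic nucleus (SCN) of mice held without light. The comparison took 12 of the 24 arrays of a time series. Early day comprised the arrays at circadian time (CT) 26, 28 and 30 of the first cycle and at CT 50, 52 and 54 of the second, which are circadian hours 2, 4 and 6. Late night comprised CT 18, 20 and 22 of the first cycle and CT 42, 44 and 46 of the second, which are circadian hours 18, 20 and 22. The other 12 arrays lay at circadian hours 0 and 8 to 16. All animals were C57/BL6 mice, with no transgene or drug named in the labels and no age or sex given. They had lived for 3 weeks under 12 h of light and 12 h of darkness and were then moved to complete darkness before collection. Each array held equal amounts of SCN RNA from 3 mice, collected every 2 h, and no time had a second array. Arrays of one window at different hours therefore stood in for replicates, so the p-values measure the spread between these pools and include any change of a gene within a window.

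The SCN is the hypothalamic pacemaker of daily rhythms. In its cells CLOCK and BMAL1 (the product of Arntl) activate genes through E-boxes, and the PER and CRY proteins made from some of these genes repress that activation. REV-ERB receptors (Nr1d1, Nr1d2) repress and ROR receptors activate at ROR elements, while DBP, TEF and HLF activate and NFIL3 represses at D-boxes. SCN neurons fire fast in the subjective day and slowly at night, and they keep time together through peptides such as VIP, vasopressin and prokineticin 2 and their receptors.

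Values are log2 probe set intensities, 1 probe set per gene, and 13956 genes were tested. The 12 arrays had medians of 6.24 to 6.31 and interquartile ranges of 2.72 to 2.90, and their median correlation with the other arrays was 0.987 to 0.991. All 26 measured genes of a 27-gene SCN identity list lay above the intensity filter, which 13956 of 19938 genes passed. So did all 15 measured astrocyte and all 14 measured oligodendrocyte markers, so passing it does not mark the tissue as SCN. The SCN list mean was 8.03 to 8.22 in early day and 7.97 to 8.23 in late night. Markers of neighbouring cells were not even between the windows. Of 14 meningeal markers 13 had a negative difference (median -0.57), with a list mean of 6.58 to 7.81 in early day and 7.32 to 7.95 in late night. Of 14 oligodendrocyte markers 13 were negative (median -0.31), with a list mean of 8.37 to 9.25 in early day and 8.73 to 9.30 in late night. The pituitary hormone gene Prl reached 10.04 at CT 20, and Gh, another, averaged 6.56 in early day and 7.81 in late night. The difference of Prl was -2.25 in the first cycle and -0.15 in the second. Of 5 tested pituitary markers 3 were negative and 2 positive (median -0.03). Their list mean was 6.46 to 7.78 in early day (average 6.90) and 6.34 to 8.89 in late night (average 7.34). None of these markers was called, and their part in the results below was not tested beyond fits with each list mean as a covariate. In tissue of this kind, fewer cells of a type and less RNA per cell cannot be told apart.

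Of the 13956 genes, 21 were higher in early day (0.150%) and 41 were lower (0.294%), or 62 in all (0.444%), by limma's moderated test with the cycle as a block and a Benjamini-Hochberg adjusted p below 0.05. At an unadjusted p below 0.05 there were 1864 genes. All 62 had the same sign in each cycle, and in 50 of them no early day array overlapped a late night array, a separation seen in 165 of all tested genes (1.18%). Both traits follow in large part from the call, which used the same arrays, and add no separate evidence. The median difference was 0.50 over the genes called higher, -0.36 over those called lower and -0.0044 over all tested genes, in log2 units. Leaving out 1 array gave 13 (without CT 28) to 24 (without CT 44) higher and 14 (without CT 20) to 69 (without CT 44) lower genes. Of the called genes, 7 of the higher and 5 of the lower genes reached 1.5-fold.

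The genes that were higher in early day included secreted SCN signals, a nicotinic receptor subunit and regulators of kinase signalling. The difference of greatest size was that of Prok2, which encodes prokineticin 2, a peptide that the SCN sends to its targets. Its intensity had a lowest, median and highest value of 6.91, 7.24 and 7.45 in early day, against 5.86, 6.12 and 6.52 in late night. The 2 sets of arrays did not overlap, and the difference was 1.10 ± 0.10 (SE), a 2.14-fold higher level (adjusted p = 4.515e-05). Vgf, which encodes a precursor of secreted neuropeptides, had 7.75, 8.06 and 8.22 in early day against 7.38, 7.54 and 7.69 in late night (difference 0.50 ± 0.08, adjusted p = 0.007684). Its windows were also apart, by a narrow margin. Chrna3, the nicotinic acetylcholine receptor subunit alpha 3, had 6.76, 7.004 and 7.07 in early day and 6.08, 6.25 and 6.41 in late night. The spread within each window was small, with SDs of 0.11 and 0.12, and the difference was 0.74 ± 0.07 (adjusted p = 4.515e-05).

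Creb3l1 encodes a membrane-bound transcription factor of the CREB3 family that is held in the endoplasmic reticulum and becomes active after cleavage. It had 6.89, 7.06 and 7.18 in early day, against 6.26, 6.34 and 6.48 in late night, and differed by 0.68 ± 0.06 (1.60-fold, adjusted p = 4.515e-05). Its windows did not overlap. The small Ras-like GTPase gene Rasl11b had 7.22, 7.44 and 7.76 in early day and 6.42, 6.56 and 6.94 in late night (0.82 ± 0.09, adjusted p = 0.0003865). Dusp4, a phosphatase that inactivates MAP kinases, had 6.21, 6.38 and 6.65 in early day and 5.52, 5.64 and 5.98 in late night (0.69 ± 0.07, adjusted p = 7.616e-05). Sik1, a kinase that restrains the CREB co-activators, had 7.71, 7.80 and 7.98 in early day and 7.16, 7.33 and 7.44 in late night (0.51 ± 0.06, adjusted p = 0.0003865). For these signalling regulators, too, every early day array lay above every late night array.

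Fbxl21, the ubiquitin ligase subunit that acts on cryptochromes, had 7.67, 7.89 and 8.13 in early day and 7.14, 7.34 and 7.47 in late night (0.61 ± 0.08, adjusted p = 0.003249). It was the only called member of 23 tested kinases, phosphatases and ligases of clock proteins, whose median difference was -0.03. Fabp7, a lipid-binding protein of astrocytes and their precursors, had 10.82, 10.97 and 11.34 in early day and 10.21, 10.59 and 10.78 in late night (0.50 ± 0.10, adjusted p = 0.02912). It was the only called gene of 15 tested astrocyte markers, 12 of which had a negative difference (median -0.08). Fabp7 was not called in 7 of 12 fits that each left out 1 array (CT 18, 20, 26, 30, 42, 50 and 52), with adjusted p up to 0.08265 without CT 18, nor under any of 4 covariates (0.05056 to 0.1183). Of the 12 genes with the largest positive differences, 9 were called in every leave-one-out fit and the same number with each of 4 covariates, the exceptions being Nr1d1, Fabp7 and Per1.

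**Figure D1:**
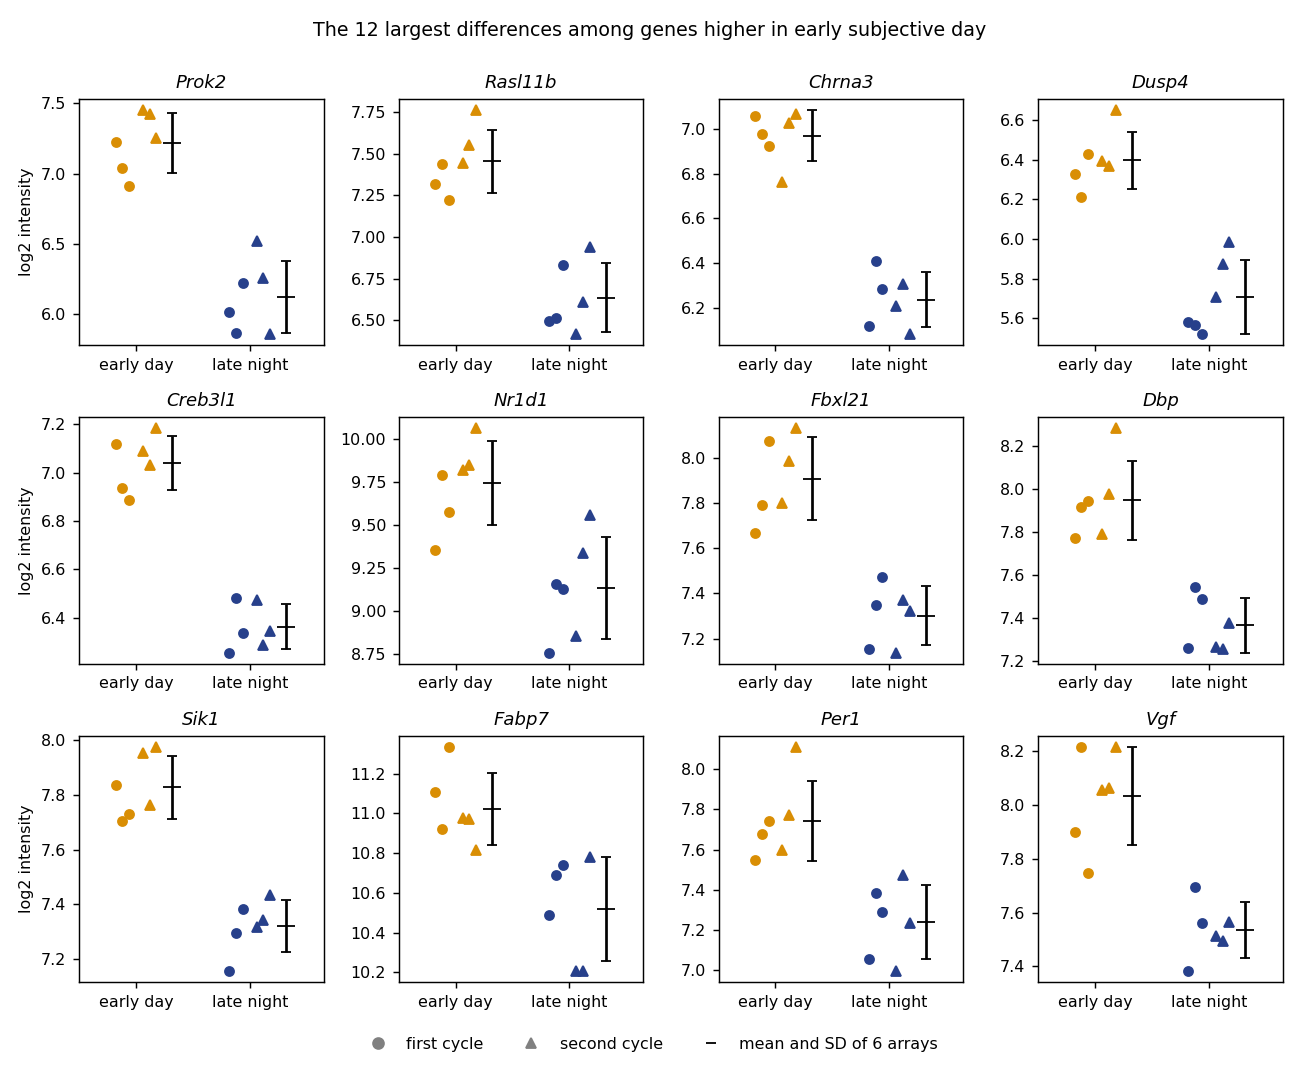
Log2 intensity (vertical axes, each with its own range) of the 12 genes with the largest positive differences in the 6 early day arrays (left) and the 6 late night arrays (right). Circles are the first and triangles the second cycle, each in order of time, and bars are the mean and SD. In 11 panels the windows do not overlap, and in that of Nr1d1 the early day array at 9.36 lies below the late night array at 9.56.

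Among the genes of the clock itself, 3 were higher in early day (Nr1d1, Dbp and Per1) and 1 was lower (Nfil3). Of 21 listed clock genes 19 were tested. The median difference over the 19 was 0.20. Nr1d1, which encodes REV-ERB alpha, had 9.36, 9.81 and 10.06 in early day and 8.76, 9.14 and 9.56 in late night (0.61 ± 0.11, adjusted p = 0.02114). Its windows overlapped, with the highest late night level at CT 46 and the lowest early day level at CT 26. Dbp, an activator at D-boxes, had 7.77, 7.93 and 8.28 in early day and 7.26, 7.33 and 7.54 in late night (0.58 ± 0.08, adjusted p = 0.00405). Per1, a repressor of its own activators, had 7.55, 7.71 and 8.11 in early day and 6.997, 7.26 and 7.47 in late night (0.50 ± 0.10, adjusted p = 0.02844). Both were higher in every early day array than in any late night array. Nfil3, the repressor at the sites where DBP activates, moved the other way, with 7.28, 7.48 and 7.84 in early day and 7.76, 7.99 and 8.08 in late night (-0.45 ± 0.08, adjusted p = 0.02718). The single early day array of Nfil3 within the late night range was that at CT 26.

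Of these calls only Dbp held in all 12 leave-one-out fits. Nr1d1 was not called without CT 18, 28, 30 or 52 (adjusted p up to 0.06573, without CT 28). Per1 was not called without CT 18, 28, 30, 42, 46 or 52 (up to 0.08356, without CT 46), and Nfil3 not without CT 18, 20, 22, 28, 30, 46 or 52 (up to 0.08981, without CT 28).

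Per2 came close to the threshold, with 6.96, 7.29 and 7.53 in early day and 6.80, 6.84 and 6.93 in late night (0.40 ± 0.08, adjusted p = 0.05106). Its windows did not overlap, and it was called without CT 26 (0.03339) and without CT 50 (0.009181), the earliest early day arrays. The remaining E-box repressor genes were not called, with differences of 0.49 ± 0.14 for Ciart, 0.20 ± 0.06 for Cry2, 0.17 ± 0.07 for Bhlhe41, 0.17 ± 0.09 for Per3, -0.02 ± 0.07 for Cry1 and -0.0017 ± 0.06 for Bhlhe40. The sign for Cry1, Bhlhe40 and the activator gene Arntl2 was not the same in every alternative fit. In the second probe set of Ciart the difference was 0.61. The receptor genes Rora, Nr1d2 and Rorb had differences of 0.36 ± 0.09, 0.25 ± 0.07 and 0.24 ± 0.08 (adjusted p = 0.1071, 0.1445 and 0.2178), so all 4 measured REV-ERB and ROR genes were positive. The D-box activators Hlf and Tef had 0.23 ± 0.06 and 0.13 ± 0.05, not called. Among the activators of the loop, Arntl had 7.33, 7.45 and 7.72 in early day and 7.56, 7.74 and 7.91 in late night. That difference, -0.26 ± 0.07, did not pass (adjusted p = 0.1527), and those of Clock (-0.09 ± 0.05) and Arntl2 (-0.01 ± 0.07) did not either.

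**Figure D2:**
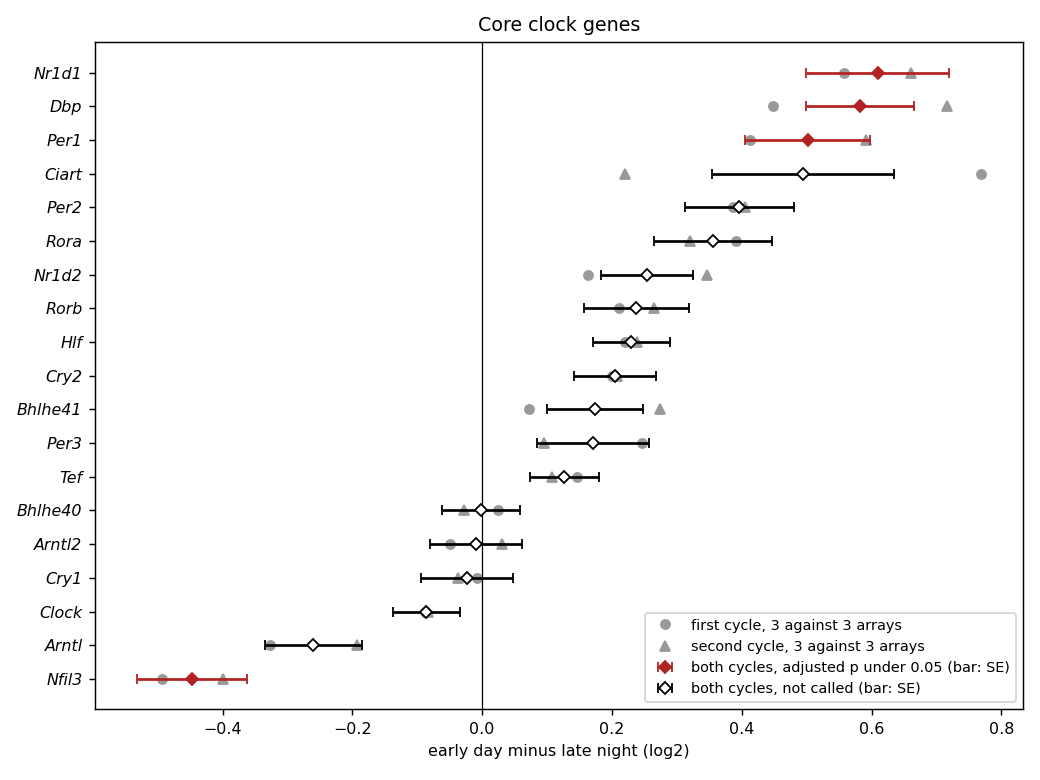
Early day minus late night (log2, horizontal axis) of the 19 tested clock genes, ordered by size. Diamonds with bars are the estimate and SE over both cycles, red where called, and grey circles and triangles are the first and the second cycle alone. Nr1d1, Dbp and Per1 are called at the top and Nfil3 at the bottom, and Arntl is the only other gene below -0.2.

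The 250 bases before the annotated start were searched for clock, stress and interferon motifs on both strands, in RefSeq promoters of GRCm38.p6. A promoter was at hand for 49 of the 62 called genes, 15 higher and 34 lower, and for 11093 tested genes. The E-box CACGTG was in 2 of the 15 higher promoters, Prok2 and Per1 (13.33%), in 0 of the 34 lower promoters and in 9.5% of all tested genes with a promoter. A ROR element half-site, TAGGTCA or TGGGTCA, was in Fabp7 among the higher and Nfil3 among the lower genes, against 5.28% of tested genes. The D-box (TTATGTAA or TTACGTAA, 0.82% of tested genes), the cAMP response element TGACGTCA (2.9%) and the heat shock element (0.45%), taken as the perfect trimer consensus, were in none of the 49. The interferon-stimulated response element consensus was in Ifit3b and Commd6 among the lower genes, 5.88% of the 34, against 2.9% of tested genes. Promoters are shown for the called genes, described by name here, that hold such a motif, which is in capitals as read 5′ to 3′ on the gene's strand. The motif begins 135 bases before the start in Prok2, 166 in Per1, 171 in Fabp7 and 12 in Nfil3, and 188 and 154 in Ifit3b. Per1 has a further annotated promoter.
Prok2, chr6:99726393-99726642, minus strand: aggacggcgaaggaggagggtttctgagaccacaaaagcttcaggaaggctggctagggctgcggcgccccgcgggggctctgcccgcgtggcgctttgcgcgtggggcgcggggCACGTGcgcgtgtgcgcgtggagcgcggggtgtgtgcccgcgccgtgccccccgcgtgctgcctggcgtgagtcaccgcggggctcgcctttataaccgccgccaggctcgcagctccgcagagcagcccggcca
Per1, chr11:69098699-69098948, plus strand: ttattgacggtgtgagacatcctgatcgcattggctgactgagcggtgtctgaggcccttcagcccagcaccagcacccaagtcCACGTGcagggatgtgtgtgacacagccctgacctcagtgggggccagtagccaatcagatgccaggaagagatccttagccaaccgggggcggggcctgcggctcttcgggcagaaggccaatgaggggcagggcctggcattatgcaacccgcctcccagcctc
Fabp7, chr10:57784673-57784922, plus strand: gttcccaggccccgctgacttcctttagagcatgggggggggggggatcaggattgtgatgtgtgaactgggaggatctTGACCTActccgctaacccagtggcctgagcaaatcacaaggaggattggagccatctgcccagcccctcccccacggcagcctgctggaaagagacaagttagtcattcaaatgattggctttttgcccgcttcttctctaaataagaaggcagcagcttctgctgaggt
Nfil3, chr13:52981040-52981289, minus strand: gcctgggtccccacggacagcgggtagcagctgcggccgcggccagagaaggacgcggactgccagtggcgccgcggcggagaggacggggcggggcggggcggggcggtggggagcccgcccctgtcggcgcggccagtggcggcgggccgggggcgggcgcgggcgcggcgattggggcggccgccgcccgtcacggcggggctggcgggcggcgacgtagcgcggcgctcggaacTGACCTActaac
Ifit3b, chr19:34607707-34607956, plus strand: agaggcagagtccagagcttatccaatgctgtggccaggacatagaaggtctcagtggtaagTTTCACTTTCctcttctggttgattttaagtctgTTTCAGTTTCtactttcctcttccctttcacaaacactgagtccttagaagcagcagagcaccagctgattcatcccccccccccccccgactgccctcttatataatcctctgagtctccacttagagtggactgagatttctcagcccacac
The letters CACGTG, found in Prok2 and Per1, are an E-box that CLOCK and BMAL1 can bind, and binding was not measured here. The ROR element of Fabp7 and Nfil3 reads TGACCTA here because it lies on the opposite strand. Each match is a description of the letters in this window.

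The genes that were lower in early day were led by a Ras-like protein, peptide receptors and a cyclic GMP-dependent kinase. Rasd1, a Ras-like protein that takes part in the response of the SCN to light, had a lowest, median and highest value of 6.66, 7.33 and 7.48 in early day against 7.68, 8.09 and 8.67 in late night. The difference was -0.90 ± 0.15, a ratio of 0.54 (adjusted p = 0.01018), and the windows did not overlap. Avpr1a, the V1a vasopressin receptor, had 6.76, 7.18 and 7.39 in early day and 7.65, 7.87 and 8.19 in late night (-0.75 ± 0.11, adjusted p = 0.003249). Vipr2, the VPAC2 receptor through which VIP acts in the SCN, had 7.32, 7.52 and 7.64 in early day and 7.84, 8.27 and 8.61 in late night (-0.73 ± 0.12, adjusted p = 0.01185). Both receptor genes were lower in every early day array than in any late night array. Early day arrays of Vipr2 were spread less widely than late night arrays (SD 0.11 in early day, 0.34 in late night).

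The ligands of these receptors did not pass. Vip had a difference of -0.33 ± 0.14 and Avp 0.27 ± 0.15 (adjusted p = 0.3116 and 0.4481), and the prokineticin receptor gene Prokr2 had -0.44 ± 0.14 (0.1948). Of the 28 tested neuropeptide and receptor genes, 1 was higher (Prok2) and 2 were lower (Avpr1a and Vipr2), with a median of 0.02 over the list.

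Prkg2, the cGMP-dependent kinase II that takes part in the phase shifts caused by light late in the night, had 5.62, 5.71 and 5.86 in early day and 6.05, 6.33 and 6.54 in late night (-0.58 ± 0.08, adjusted p = 0.003249). A second, dimmer probe set of Prkg2, with a mean of 5.32 below the intensity filter, differed by -0.62. Sertm1, a small membrane protein of neurons, had 5.39, 5.68 and 5.99 in early day and 6.25, 6.39 and 6.53 in late night (-0.71 ± 0.10, adjusted p = 0.003249). Neither gene's windows overlapped. The Sertm1 levels at CT 30 (5.47) and CT 52 (5.39) lay below log2 5.52, the filter level applied to the mean of each gene. Pde7b, a phosphodiesterase that breaks down cAMP, had 8.89, 9.02 and 9.16 in early day and 9.23, 9.35 and 9.59 in late night (-0.38 ± 0.07, adjusted p = 0.02682). It was the only called member of 35 tested cAMP signalling genes (median -0.02). Kcnh5, a voltage-gated potassium channel, had 7.76, 7.92 and 8.02 in early day and 8.11, 8.25 and 8.42 in late night (-0.34 ± 0.06, adjusted p = 0.02607), alone among 44 potassium channel genes (median 0.03). Pde7b and Kcnh5 were each not called in 7 of the 12 leave-one-out fits (adjusted p up to 0.0797 and 0.07186), both without CT 20, 28, 30, 46, 50 and 52, Pde7b also without CT 26 and Kcnh5 also without CT 22.

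The immediate early gene Jun had 7.75, 7.87 and 7.95 in early day and 7.91, 8.13 and 8.27 in late night, with overlap (-0.27 ± 0.06, adjusted p = 0.04894). The axon guidance receptor gene Epha4 had 7.16, 7.27 and 7.32 in early day and 7.41, 7.50 and 7.57 in late night (-0.24 ± 0.05, adjusted p = 0.04901). The windows of Epha4 did not overlap. Jun was called in 1 of the 12 leave-one-out fits, that without CT 44, and Epha4 in 0, with adjusted p up to 0.1209 and 0.1294, both without CT 46. Of 41 immediate early and CREB target genes 2 were higher (Dusp4 and Sik1) and 1 was lower (Jun), with a median of -0.0063.

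Other genes among the 12 with the largest negative differences were Dsel, a homologue of an enzyme of dermatan sulphate synthesis (-0.57 ± 0.09), the cadherin Cdh19 (-0.56 ± 0.09), Prr15 (-0.55 ± 0.08), the tRNA methyltransferase homologue Trmt9b (-0.46 ± 0.07) and the actin-binding homologue Cobll1 (-0.46 ± 0.07). Their adjusted p lay between 0.005746 and 0.01087, and only Cdh19 had overlapping windows. Of the 12 genes 11 were called in every leave-one-out fit, the exception being the heat shock gene Hspa1a, and 3 under all 4 covariates (Avpr1a, Sertm1 and Prkg2).

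**Figure D3:**
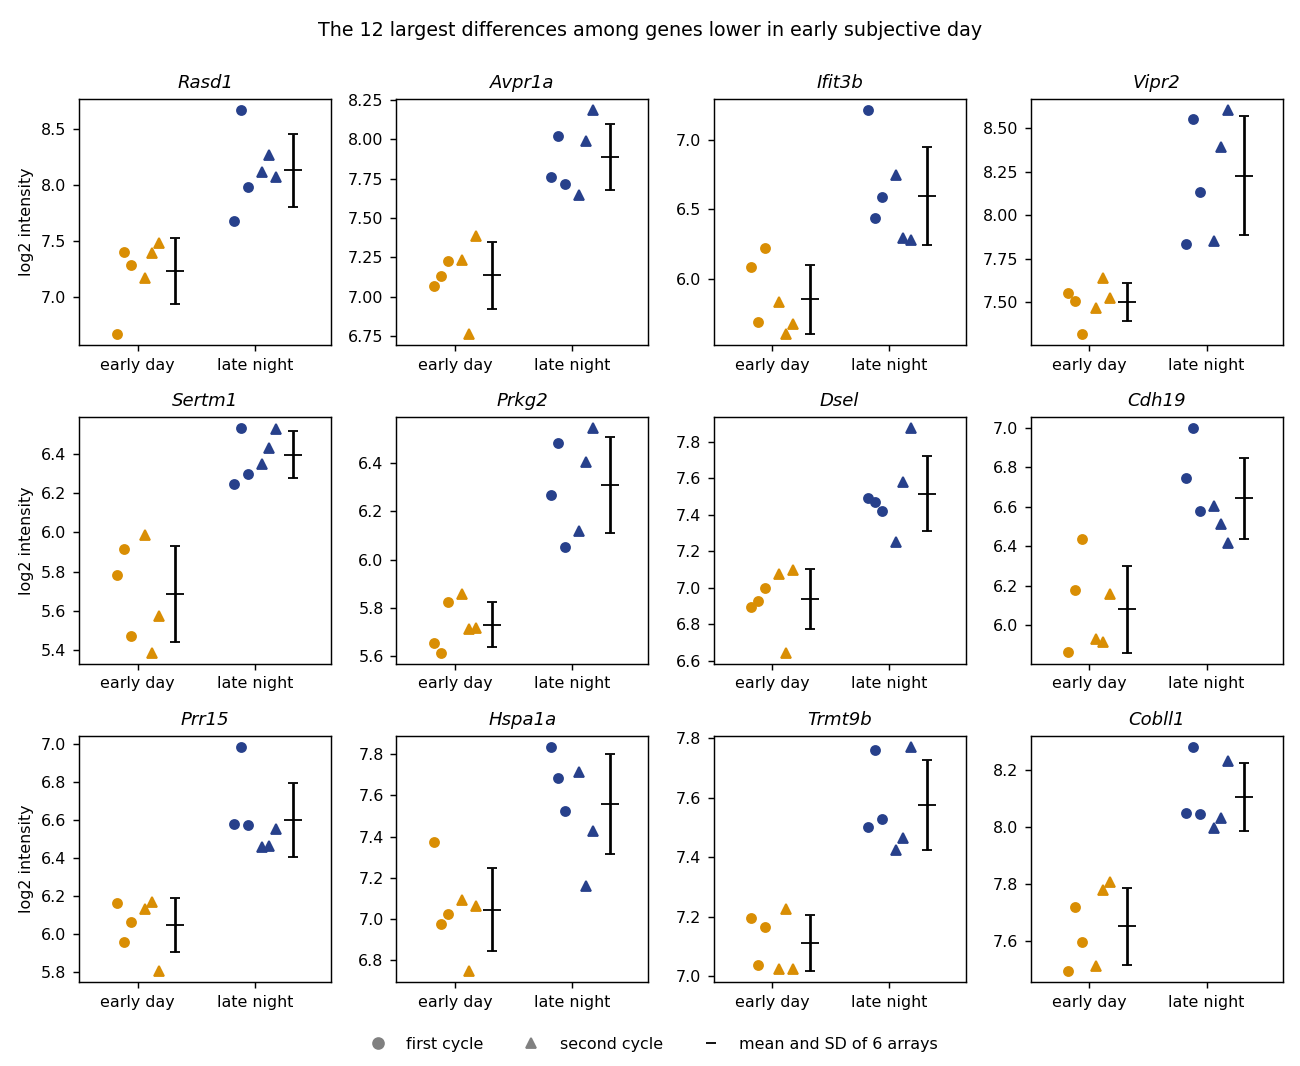
Log2 intensity (vertical axes, each with its own range) of the 12 genes with the largest negative differences in the 6 early day arrays (left) and the 6 late night arrays (right). Circles are the first and triangles the second cycle, each in order of time, and bars are the mean and SD. The windows overlap only for Cdh19 and Hspa1a.

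The negative differences of the meningeal and oligodendrocyte lists ran the same way as the genes called lower. With the meningeal marker mean as a covariate, 4 of the 41 lower genes and 15 of the 21 higher genes were still called, and with the oligodendrocyte mean 10 and 14. With the pituitary mean these counts were 8 and 12, and with the array background, the mean of 1190 olfactory and vomeronasal receptor genes, 3 and 12. The median over the 41 lower genes was -0.35 with the meningeal covariate and -0.32 with the array background, against -0.36 without a covariate. None of the 62 changed sign in any of these fits. Single genes moved more than the median. With the meningeal covariate Rasd1 went from -0.90 to -0.66, Cdh19 from -0.56 to -0.40 and Myo1e from -0.41 to -0.22. Sertm1 went from -0.71 to -0.86 and Nfil3 from -0.45 to -0.54. Rasd1 was called with no covariate (adjusted p = 0.05783 to 0.1513) and Vipr2 only with the oligodendrocyte mean (0.03488, against 0.08869 to 0.1223 with the others). The array background, like the meningeal and oligodendrocyte means, was not even between the windows. It was 4.09 to 4.19 in early day (median 4.16) and 4.01 to 4.15 in late night (median 4.10). Each covariate took 1 residual degree of freedom, and why calls were lost was not tested.

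Chaperones help proteins to fold and many are induced by heat. Of 33 tested heat shock and chaperone genes 4 were lower, 0 were higher and 32 had a negative difference, with a median of -0.14 over the list. The median was -0.16 in the first cycle and -0.14 in the second, against -0.009 and -0.0036 over all tested genes. Hspa1a, the inducible HSP70 chaperone, had 6.75, 7.04 and 7.37 in early day and 7.16, 7.60 and 7.84 in late night, with overlap (-0.51 ± 0.10, adjusted p = 0.02947). Hspa1b, its near-identical copy, had no probe set of its own here, and the probes may not tell the pair apart. Chordc1, a partner of HSP90, had 8.54, 8.79 and 9.04 in early day and 9.06, 9.22 and 9.35 in late night (-0.42 ± 0.08, adjusted p = 0.02227). Hspa2, another HSP70 gene, had 8.03, 8.12 and 8.36 in early day and 8.42, 8.51 and 8.73 in late night (-0.39 ± 0.07, adjusted p = 0.01678). In Chordc1 and Hspa2 the windows were apart. Dnajb1, an HSP40 co-chaperone, had 6.62, 6.74 and 6.95 in early day and 6.94, 7.11 and 7.17 in late night (-0.33 ± 0.06, adjusted p = 0.01972). The small heat shock protein gene Hspb1 had a difference of equal size to Hspa1a that did not pass (-0.53, adjusted p = 0.1247).

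The 4 calls depended on single arrays. Leaving out 1 array ended the call of Hspa1a in 7 fits (CT 18, 20, 28, 30, 42, 46 and 52, adjusted p up to 0.1013), of Chordc1 in the same 7 (up to 0.06119), of Dnajb1 in 5 (CT 20, 28, 30, 46 and 52, up to 0.06668) and of Hspa2 without CT 28 (0.05296). None of the 4 was called with any of the 4 covariates, while the list median stayed between -0.11 and -0.19.

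The 23 tested genes of the endoplasmic reticulum stress response held 0 called, but 19 had a negative difference (median -0.11). The smallest p was that of Creld2, a secreted protein induced by such stress (-0.21 ± 0.07, adjusted p = 0.2014). The list held its sign in each cycle, at -0.14 and -0.06. All 4 measured cold-inducible RNA-binding genes had a positive difference, though none was called, the smallest p being that of Cirbp (0.22 ± 0.07, adjusted p = 0.217). The smallest of these differences was 0.0026, and in the first cycle alone 3 were positive and 1 was negative.

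Of 18 tested interferon-induced genes 1 was lower, 0 were higher and 17 had a negative difference, with a median of -0.14. Ifit3b, an antiviral protein induced by interferon, had 5.60, 5.76 and 6.23 in early day and 6.28, 6.51 and 7.21 in late night (-0.74 ± 0.13, adjusted p = 0.01396). The windows were apart by a narrow margin, and the 2 response elements of its promoter are shown above. Its near-identical neighbour Ifit3 had a difference of -0.67 that did not pass (adjusted p = 0.0979), and the probes may not tell the pair apart. The list median was -0.03 with the meningeal covariate and -0.04 with the oligodendrocyte covariate, and Ifit3b was called only with the pituitary covariate (adjusted p = 0.02583, against 0.05056 to 0.06405 with the others).

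Firing rates in the SCN differ between day and night, and genes of fast transmission and excitability were listed for that reason. None of 20 tested GABA genes, 20 glutamate receptor genes or 22 voltage-gated and pacemaker channel genes was called, and their medians were 0.02, 0.0058 and 0.02. The smallest p in each list belonged to Slc12a2, the chloride importer (-0.33 ± 0.10, adjusted p = 0.1577), to the kainate receptor subunit Grik5 (0.15 ± 0.05, adjusted p = 0.2345) and to the T-type calcium channel Cacna1g (0.16 ± 0.07, adjusted p = 0.2889). Of 36 genes of secretory granules and vesicle release, 24 had a positive difference (median 0.03) and only Vgf was called.

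Lists of basic cell functions held no called gene. The 50 respiratory chain genes (median -0.03), 33 ribosomal protein genes (-0.02), 32 proteasome genes (-0.03), 38 splicing factors (-0.05) and 20 glycolysis genes (0.04) all had medians near that of all tested genes. Their members of smallest p were Ndufb3 (-0.12 ± 0.05), Rps27l (-0.17 ± 0.09), Psme4 (-0.14 ± 0.06), Tra2b (-0.22 ± 0.06) and Pfkp (-0.11 ± 0.05). Negative differences were seen in 35 respiratory chain, 25 ribosomal protein, 23 proteasome, 25 splicing factor and 8 glycolysis genes. Over all 13956 tested genes 7210 were negative. None of 22 glucocorticoid-induced genes was called. Tsc22d3, a mediator of glucocorticoid action, had 6.94, 7.07 and 7.24 in early day and 7.25, 7.32 and 7.44 in late night (-0.25 ± 0.06, adjusted p = 0.09493), without overlap, and was called without CT 54 (0.03876). The sterol synthesis gene Msmo1 was alike, with 9.004, 9.12 and 9.24 in early day and 9.30, 9.32 and 9.39 in late night (-0.21 ± 0.05, adjusted p = 0.08454), in a list of 22 with 0 called.

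**Figure D4:**
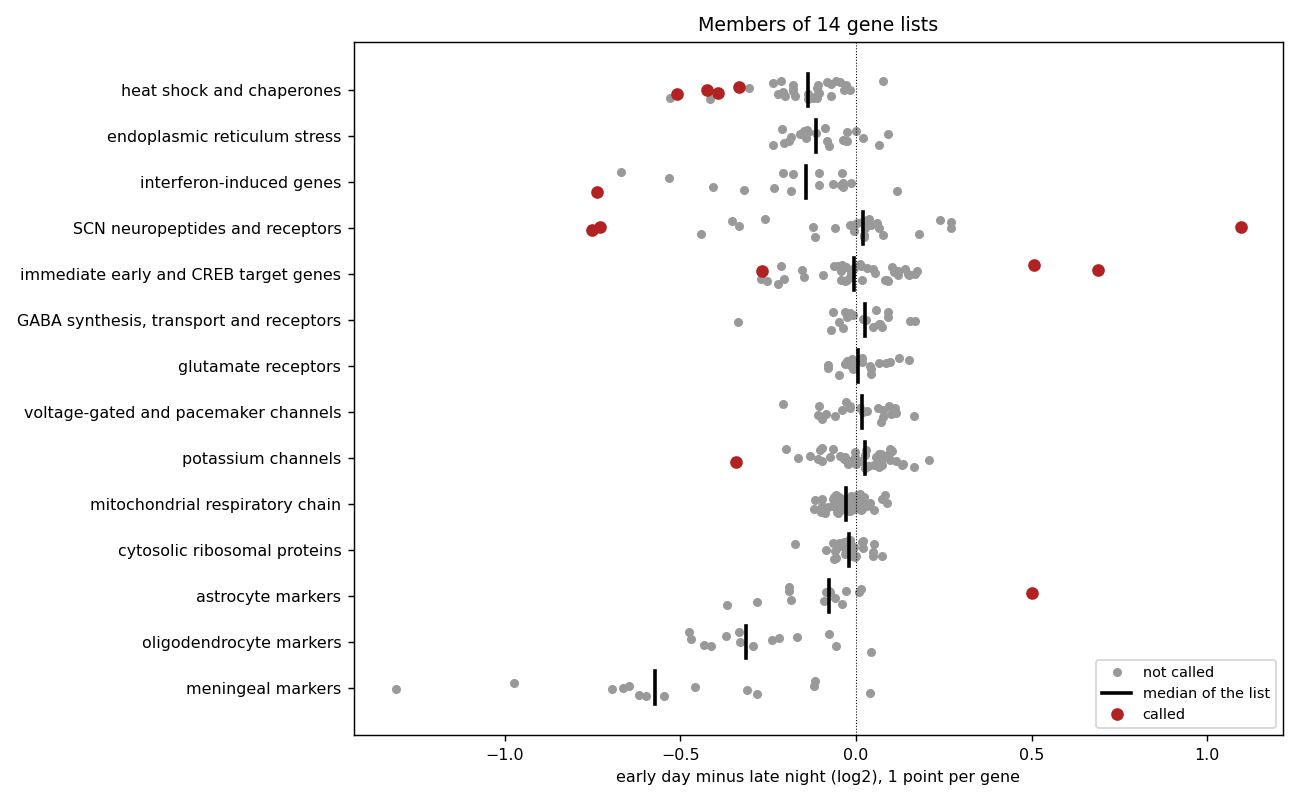
Early day minus late night (log2, horizontal axis) of every tested gene of 14 lists, 1 point per gene, with called genes in red and the median of each list as a black bar. Chaperones lie almost wholly left of 0 with a median of -0.14, meningeal and oligodendrocyte markers lie further left with no called member, and the transmission, channel and ribosomal lists centre near 0.

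The called genes were then read over all 24 arrays, averaging the 2 arrays of each circadian hour. Of the 21 higher genes 10 had their highest hour within early day, 10 at hours 8 to 12 and 1 at hour 16. Their lowest hour was 14 or 16 for 11 and within late night for 10. Of the 41 lower genes 33 were highest within late night, and 22 had their lowest hour within early day. The hours of the 2 windows hold the arrays that gave the calls, so these counts are in part set by the selection. The arrays at CT 40, 62 and 64, at hours 14 and 16, had the narrowest ranges of values of the series, and they enter the means of hours 14 and 16.

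Hour 0, at CT 24 and CT 48, lies between the windows, and each level there was placed on the way between the late night mean (0%) and the early day mean (100%). The median of the 21 higher genes stood at 55.7% at CT 24 and 52.7% at CT 48, and 12 of the 21 were at or past the midpoint at each time, 8 of them at both. The median of the 41 lower genes stood at 41.5% and 28.6%, with 14 and 10 at or past the midpoint and 3 at both. Among the higher genes Dusp4 was past the early day mean in both arrays (117.4% at CT 24 and 106.5% at CT 48). Nr1d1 stood at 91.8% and 104.1%, Rasl11b at 92.4% and 95.6%, Sik1 at 85.8% and 99.8% and Prok2 at 88.6% and 56.8%. Chrna3 was below the midpoint in both arrays (38.8% and 15.8%). Of the lower genes named here Ifit3b was past the midpoint in both arrays (52.3% and 97.4%). The 2 arrays differed for Rasd1 (76.0% at CT 24 and 32.1% at CT 48), Avpr1a (64.7% and -20.0%), Vipr2 (45.3% and -5.1%) and Dsel (41.5% and -25.4%), each nearer its late night mean at CT 48. They differed the other way for Hspa2 (11.1% and 78.8%), Hspa1a (26.9% and 79.8%), Nfil3 (12.6% and 63.4%) and Sertm1 (44.5% and 66.8%). Each share rests on 1 array, and none was tested.

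Rgs16, a regulator of G protein signalling, was less even in level in late night than in early day (SD 0.17 in early day, 0.49 in late night). It had 9.66, 9.95 and 10.12 in early day and 8.40, 9.19 and 9.71 in late night, a difference of 0.81 ± 0.17 that did not pass (adjusted p = 0.05106). Its late night levels were 8.40, 9.38 and 9.42 at CT 18, 20 and 22 and 8.73, 8.996 and 9.71 at CT 42, 44 and 46. With circadian time as 6 levels beside the cycle, a fit with 5 residual degrees of freedom, Rgs16 was called (SE 0.09, adjusted p = 0.0009605), as was Per2 (0.006866). That fit called 20 genes higher and 28 lower, among them 41 of the 62. It also called Ifit3 (-0.67, adjusted p = 0.008219) and Prokr2 (-0.44, 0.04755), which did not pass in the fit reported. In the 12-array fit Rgs16 was called without CT 22 (0.04354) and without CT 46 (0.02127). The level at the last hour of a window minus that at its first hour, averaged over the cycles and not tested, was 0.53 for Vipr2 in late night and -0.43 for Nfil3 in early day.

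**Figure D5:**
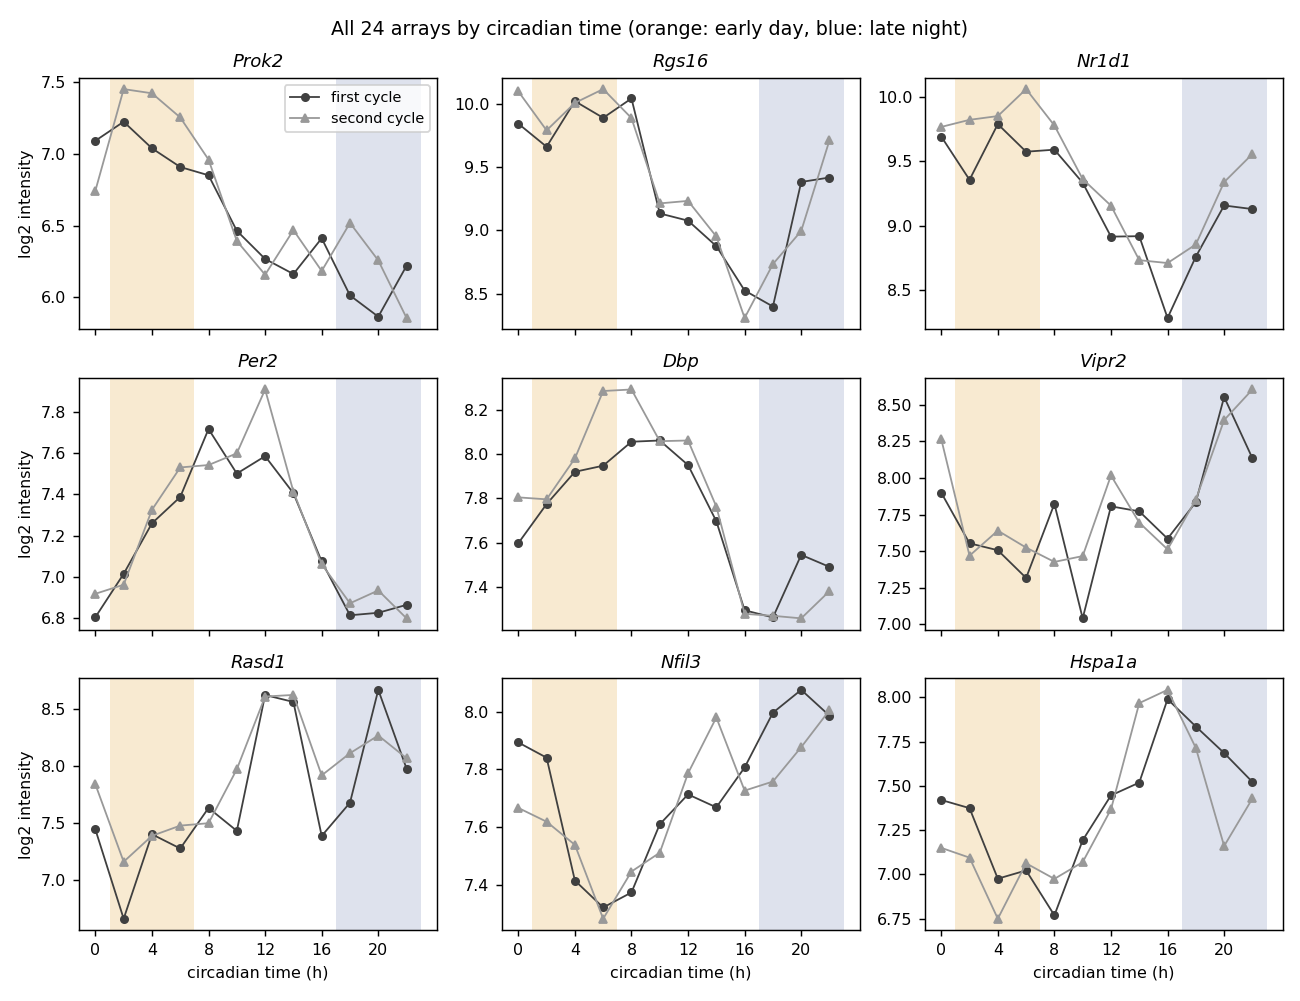
Log2 intensity (vertical axes, each with its own range) of 9 genes in all 24 arrays against circadian time in hours, with early day shaded orange and late night blue. Dark circles are the first and grey triangles the second cycle, joined in order of circadian hour. Prok2 and Rgs16 are high through early day, Per2 and Dbp climb within it, Vipr2 is highest at hours 20 and 22, and Nfil3 and Hspa1a fall into early day.

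The difference was also set side by side in the 2 cycles, each with 3 arrays per window. It was 1.02 in the first cycle and 1.17 in the second for Prok2, 0.72 and 0.75 for Chrna3, -0.72 and -0.74 for Vipr2, and -0.74 and -0.73 for Ifit3b. No gene passed limma's interaction test for a change between cycles (0.00% of 13956 called, 394 at an unadjusted p below 0.05). The 3 genes of smallest p were 4921524J17Rik, BC085271 and Gpc2, each with an adjusted p of 0.9994. In simulated data this test recovered 43.3% of genes with a change of 0.6 and 83.3% with one of 0.9, so smaller changes were hardly detectable. The marker lists had a meningeal median of -0.88 in the first cycle and -0.27 in the second, and an oligodendrocyte median of -0.44 and -0.17.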

How the data were processed

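Each array measured SCN RNA pooled from 3 mice, and per the labels the RNA was amplified with the NuGen kit Pico WTA V2 and biotin-labelled with Encore Biotin. The authors deposited log2 intensities per probe set, made with RMA 1.3.1.187 in Affymetrix Expression Console, per the submitters' processing notes. Background settings and a genome build are not given in the sources used here, and no further scaling was applied.

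Of 35556 probe sets, 21789 had 1 gene symbol in the platform annotation, 1621 had several, and the annotation did not list 12146. For 21698 the Entrez identifier matched RefSeq GRCm38.p6. Each of 19938 genes took its probe set of highest mean (999 had more than 1), and 13956 with a mean above the 30th percentile (log2 5.52) were tested. Fits used limma 3.58.1 in R 4.3.3 (lmFit, eBayes, two-sided, Benjamini-Hochberg adjustment over all tested genes, threshold 0.05) on 12 arrays with terms for window and cycle, leaving 9 residual degrees of freedom. The cycle was the block because the windows were paired over the cycles. Replicate numbers within a window follow accession order and pair nothing. Tables were made in pandas 2.3.3 under Python 3.11.15, and figures in matplotlib 3.10.9.

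The windows, the gene lists, the tests and the naming rule were chosen with earlier results of these data known. The rule named the 12 largest positive and 12 largest negative called differences, every tested clock gene, from every further list the 3 most significant called members (or the 1 of smallest p where none was called) and, for the change between cycles, the 3 of smallest p. Other genes named were chosen after their values were seen. In simulated data the window test recovered 58.2% of genes changed by 0.3, 94% by 0.6 and 100% by 0.9, with 5.6% false calls. The simulations of this test and of the change between cycles drew noise independently for each gene. They held no course within a window and no shift shared between genes, so their rates need not hold for these arrays. The number of arrays limits the precision. Alternatives covered the filter, probe sets, scaling, weights, prior, block, time levels, single cycles, threshold, covariates and each array left out. The meningeal covariate was added after seeing the data.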

Additional observations from a re-analysis of the deposited data

Results flagged for a closer look

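A Dixon gap test of each window of the named genes picked out 3 of 142 groups of 6 arrays in which 1 array stood apart, where chance alone gives about 1 in 20, or 7.1. The late night array at CT 20 was highest for Prr15, at 6.99 against 6.46 to 6.58 in the others (gap ratio 0.776). The late night array at CT 44 was lowest for Dnajb1, at 6.94 against 7.09 to 7.17 (gap ratio 0.669). The early day array at CT 26 was highest for the pituitary hormone gene Prl, at 7.34 against 4.90 to 5.65 (gap ratio 0.692).

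The difference of 4921524J17Rik was 0.17 in the first cycle and -0.48 in the second, a change of -0.6574. The gene was picked out because its windows did not overlap in either cycle and lay apart in opposite directions. It did not pass limma's interaction test over all genes (adjusted p = 0.9994).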

How the results depend on the processing

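Counts are of genes higher and lower in early day, 21 and 41 in the fit reported. They were 9 and 2 with all probe sets, 32 higher with quantile normalisation, 3 and 4 in the first cycle alone, 4 and 1 in the second cycle alone, and 12 and 7 at an adjusted p below 0.01. With a covariate they were 10 lower for the oligodendrocyte mean, 13 and 8 for the pituitary mean, 12 and 3 for the array background, and 4 lower for the meningeal mean (added after seeing the data). Without the replicate block (cycle left out) 22 were higher and 37 lower, and 54 of the 62 calls remained. Leaving out 1 array gave 13 (without CT 28) to 24 (without CT 44) higher and 14 (without CT 20) to 69 (without CT 44) lower genes; the lower count was 62 without CT 54 and 15 to 23 without CT 18, 28, 30, 46, 50 or 52. The cause was not tested. The 62 genes kept their sign in every fit that held them. No gene passed limma's interaction test in any fit (188 to 730 at an unadjusted p below 0.05). Over 71 named genes and their alternatives, 1686 of 1979 values kept direction and side of the threshold, 240 lost and 26 gained a call, and 27 changed sign. The 27 were of 7 genes and called neither in the fit reported nor in the alternative. The difference of Bhlhe40 was 0.0041 with quantile normalisation, 0.0067 with array weights, 0.0245 in the first cycle and 0.0146 with the meningeal mean. That of Cry1 was 0.0494 with the oligodendrocyte and 0.0999 with the meningeal mean, and that of Vtn 0.0204 and 0.1712. Gpc2 had -0.2603 in the second cycle and -0.0494, -0.0876, -0.0602 and -0.1284 with the oligodendrocyte, pituitary, background and meningeal covariates. In the first cycle 4921524J17Rik had 0.174 and BC085271 0.1536, and in the second Arntl2 had 0.0302. Leaving out 1 array gave -0.0477 to 0.0341 for Arntl2, -0.0654 to 0.0381 for Cry1, -0.0305 to 0.0301 for Bhlhe40 and -0.0167 to 0.1127 for Gpc2. With 12 pools and no second array per time, small differences are hardest to detect.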

Other observations

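Several called genes outside the naming rule, chosen here after their values were seen, act at neuronal contacts or carry myo-inositol. Gjd2, which encodes connexin 36 of the gap junctions between neurons, averaged 6.16 ± 0.12 in early day and 5.83 ± 0.11 in late night (SD, n = 6 each), a difference of 0.33 ± 0.07 (limma adjusted p = 0.04313). C1ql3, a secreted protein of excitatory synapses, averaged 9.67 ± 0.13 in early day and 9.20 ± 0.15 in late night (0.47 ± 0.07, adjusted p = 0.005106), and it was called with each of the 4 covariates. The myo-inositol transporter genes Slc2a13 and Slc5a3 differed in opposite directions. Slc2a13 averaged 9.57 ± 0.19 in early day and 9.18 ± 0.10 in late night (0.39 ± 0.08, adjusted p = 0.04901). Slc5a3 averaged 8.17 ± 0.08 in early day and 8.48 ± 0.12 in late night (-0.31 ± 0.06, adjusted p = 0.04259). None of these 4 genes had overlapping windows. C1ql3 was called in all 12 fits that left out 1 array, Gjd2 in 4, Slc2a13 in 3 and Slc5a3 in 2. With the 4 covariates Gjd2 and Slc5a3 were called in 0 fits and Slc2a13 in 2.

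Regulators of RNA and chromatin were also among the higher genes. Srrm4, a neuronal splicing regulator, averaged 8.14 ± 0.04 in early day and 7.86 ± 0.08 in late night (0.28 ± 0.05, adjusted p = 0.01972). Hmgb3, a high-mobility-group DNA-binding protein, averaged 8.48 ± 0.09 in early day and 8.10 ± 0.09 in late night (0.38 ± 0.05, adjusted p = 0.003249), and its second probe set differed by 0.41. Hmgb3 was called with each of the 4 covariates and in all 12 fits that left out 1 array, Srrm4 with 0 of the covariates and in 7 of those fits.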
